A study of Homo sapiens with 12 samples.

Results

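The 38 genes described here are the enzymes of glycolysis, the carriers of glucose and lactate, the kinases that steer pyruvate and glycolytic flux, and well-known targets and regulators of the hypoxia-inducible factor (HIF). They were chosen by symbol for their known function, with earlier results of these data known. All 38 symbols were found among the 43735 entries of the count table. The data are RNA-seq libraries of MM1S and MM1R, a pair of cell lines from multiple myeloma, a cancer of plasma cells. There were 12 libraries from 4 groups of 3 independent cultures, namely untreated MM1S, MM1S with WA, untreated MM1R and MM1R with WA. MM1S is sensitive and MM1R is resistant to glucocorticoids (GC), and both lines came from the same patient. WA is withaferin A, a plant steroidal lactone that reacts with cysteine thiols, and it was given at 1 µM for 3 h. The control cultures are named as untreated, and no solvent is stated for them. Replicates were cultures of passages 16, 22 and 23 for MM1S and passages 4, 6 and 7 for MM1R. GC sensitivity is represented by 1 line each, and the lines share no passage, so that resistance, line and passage number cannot be told apart in a comparison of MM1R with MM1S.

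Glycolysis converts glucose to pyruvate. Hexokinase traps glucose as glucose 6-phosphate, phosphofructokinase commits it to breakdown, and lactate dehydrogenase turns pyruvate into lactate when it is not passed to the mitochondria. HIF is a transcription factor made of an oxygen-labile alpha subunit and a constant beta subunit. With oxygen, prolyl hydroxylases mark the alpha subunit for degradation. Without it, HIF binds a short core sequence in DNA and raises glycolytic enzymes, glucose carriers and genes for collagen hydroxylation, mitophagy and histone demethylation. Many cancer cells, including myeloma cells, run glycolysis also in the presence of oxygen.

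Each library held 17625110 to 19368343 counted reads, and the 38 genes together took 0.992% to 1.44% of them. A level is given as CPM, the usual count scaled to sequencing depth, after TMM scaling, which evens out differences in library composition. All 9 plasma cell markers lay over 1 CPM, with a sum of 9948 to 18686 CPM, whereas the sum of 4 mature B-cell markers was at most 0.213 CPM. Of 4 T-cell markers only CD3E exceeded 3 CPM (3.26 to 11.6 CPM), and CD3D was at most 0.0533 CPM. Among the monocyte markers only CD68 exceeded 1 CPM (17.2 to 32.5 CPM), and LYZ was at most 0.104 CPM. The sum of 4 epithelial markers lay between 0.310 and 1.44 CPM.

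A gene was tested where it passed edgeR's filter on low counts, which 14085 genes did, and it was called where its adjusted p was under 0.05. These p-values come from the quasi-likelihood test of edgeR, with the 12 libraries fitted together and Benjamini-Hochberg adjustment over the 14085 genes. Of the 38 genes, 32 were tested. The 6 that were not are CA9, with 0 reads in every library, LDHA with 0 to 4 reads, PFKP with 0 to 4, SLC16A1 with 0 to 1, BNIP3 with 1 to 11 and EGLN3 with 1 to 10. The entry for LDHA, the muscle-type lactate dehydrogenase subunit, cannot be read as a level. LDHA, SLC16A1 and GPI each have an additional entry with a copy number in the table, and those of LDHA and SLC16A1 are listed at 0. HPS5 and GTF2H1, which lie next to LDHA and were looked up after the values were seen, are listed at 6 to 14 and at 5 to 16 reads and also have a copy entry at 0. ALDOA, usually an abundant aldolase, was listed at 37 to 95 reads, and an entry that overlaps it, LOC112694756, had 25 to 51 reads. The part of copies and overlaps in these low counts was not tested.

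Promoter windows are shown first, for the members that the edgeR test above called with WA in both lines. Each window runs from 250 bases before to 50 bases after a transcript start and is written 5′ to 3′ on the strand of the gene, from RefSeq (GRCh38.p14), with the HIF core (ACGTG or GCGTG, on either strand) in capitals. P4HA2 is at chr5:132227042-132227341 on the minus strand, P4HA1 at chr10:73096817-73097116 on the minus strand, HK2 at chr2:74833877-74834176, KDM3A at chr2:86441121-86441420 and MXI1 at chr10:110207355-110207654, these 3 on the plus strand. For HK2, KDM3A and MXI1 only the window of the first of several starts is shown.
P4HA2: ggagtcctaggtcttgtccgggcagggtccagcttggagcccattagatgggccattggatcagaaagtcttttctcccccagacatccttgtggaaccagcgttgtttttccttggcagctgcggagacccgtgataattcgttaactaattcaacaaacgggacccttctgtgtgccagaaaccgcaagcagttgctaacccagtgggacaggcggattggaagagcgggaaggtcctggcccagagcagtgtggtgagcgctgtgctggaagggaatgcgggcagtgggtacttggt
P4HA1: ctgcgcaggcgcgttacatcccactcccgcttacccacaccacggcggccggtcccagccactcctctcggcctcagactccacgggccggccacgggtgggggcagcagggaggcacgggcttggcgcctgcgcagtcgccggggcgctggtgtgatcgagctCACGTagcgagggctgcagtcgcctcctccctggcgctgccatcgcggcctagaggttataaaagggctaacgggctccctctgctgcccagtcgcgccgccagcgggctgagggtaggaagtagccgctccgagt
HK2: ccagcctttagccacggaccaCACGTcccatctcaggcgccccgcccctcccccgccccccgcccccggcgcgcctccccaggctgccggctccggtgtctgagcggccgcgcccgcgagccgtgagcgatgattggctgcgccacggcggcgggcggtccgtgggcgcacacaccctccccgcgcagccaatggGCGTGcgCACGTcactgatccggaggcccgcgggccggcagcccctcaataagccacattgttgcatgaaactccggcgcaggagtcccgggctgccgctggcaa
KDM3A: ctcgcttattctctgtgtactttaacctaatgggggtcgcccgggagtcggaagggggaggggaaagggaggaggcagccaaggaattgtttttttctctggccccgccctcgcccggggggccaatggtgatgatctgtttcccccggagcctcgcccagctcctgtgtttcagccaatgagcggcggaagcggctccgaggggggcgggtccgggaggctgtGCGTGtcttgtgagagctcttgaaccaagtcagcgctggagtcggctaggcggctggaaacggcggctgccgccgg
MXI1: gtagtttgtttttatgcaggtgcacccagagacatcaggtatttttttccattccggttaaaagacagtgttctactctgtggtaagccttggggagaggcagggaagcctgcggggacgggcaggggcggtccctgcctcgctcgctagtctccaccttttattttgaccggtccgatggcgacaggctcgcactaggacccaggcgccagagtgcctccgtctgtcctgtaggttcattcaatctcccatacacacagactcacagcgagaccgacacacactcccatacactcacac

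Of the printed windows, those of P4HA2 and MXI1 hold no such core, those of P4HA1 and KDM3A hold 1 and that of HK2 holds 3. The other 2 windows of MXI1 hold 2 cores each and the other window of HK2 holds 6, with matches on both strands counted also where they overlap. The other window of KDM3A holds 1. It overlaps the printed window, and its core is the same site, so windows of a gene can share a core. Over all starts, the core was found in at least 1 window of 31 of the 34 members with a promoter entry (91.2%), compared with 52.4% of 27305 genes, and in 43 of 64 windows (67.2%) compared with 48.4% of 35116 windows. The 3 members without it are P4HA2, PGAM1 and EGLN3. The core of the heat shock element, TTCNNGAA, was in 0 of the 64 windows, while 7.74% of all windows hold it. These are letter matches in short windows and say nothing of binding. The share by gene also grows with the number of windows, which was 7 for HK1 and for PFKM. Known targets of HIF were among the members by choice. SLC2A3, SLC16A1, BNIP3L and NDRG1 had no promoter entry.

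Levels of different genes can be compared per length only, as CPM per kb of exon. By this measure, GAPDH, which oxidizes glyceraldehyde 3-phosphate, was highest with a mean of 1727 CPM per kb over the 12 libraries. It was followed by the triosephosphate isomerase gene TPI1 (353 CPM per kb), the heart-type lactate dehydrogenase gene LDHB (256), the enolase gene ENO1 (213) and the phosphoglycerate kinase gene PGK1 (158). By this measure the readable entries of the upper steps were lower, with 47.2 CPM per kb for GPI, 33.2 for PFKL, 18.6 for PFKM and 12.8 for ALDOC. The aldolase step is given without ALDOA, whose level cannot be read. Lengths cover all annotated exons of a gene, such as 10.68 kb for GPI and 2.54 kb for PGAM1. The order depends on them, and the gene models of the counting are not known. Of the hexokinases, HK2 was at 14.8 ± 2.11 CPM per kb (SD, n = 3) in untreated MM1S, above HK1 at 2.92 ± 0.34. With WA, HK2 stood at 6.16 ± 3.03 in MM1S and at 4.06 ± 0.86 in MM1R, where HK1 was at 4.22 ± 0.12. In MM1R with WA the means of HK1 and HK2 thus lay closer than the SD of HK2.

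**Figure D1:**
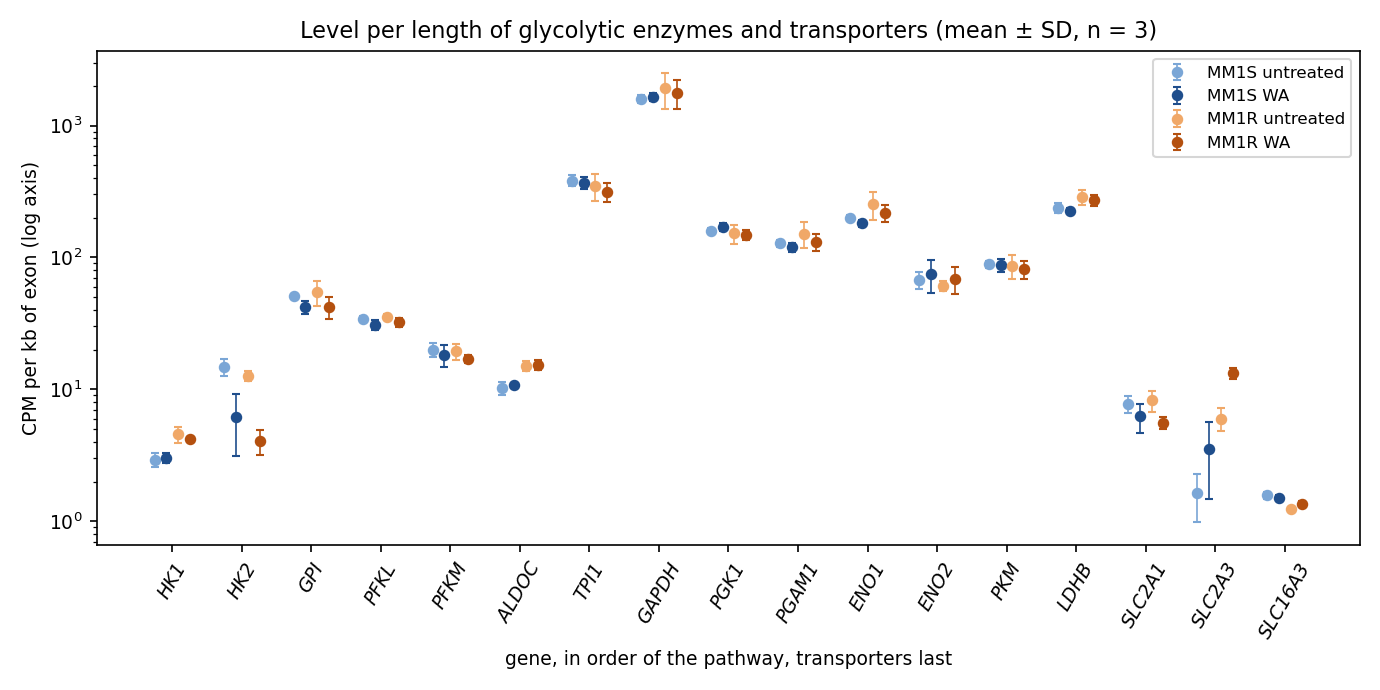
Level of glycolytic enzymes and carriers in CPM per kb of exon (log axis), in order of the pathway, as mean ± SD over the 3 cultures of each of the 4 groups. GAPDH lies highest at a mean of 1727 CPM per kb over all cultures, and HK2 and SLC2A3 are the genes whose groups stand furthest apart. ALDOA, LDHA, PFKP and SLC16A1 are left out because of their low counts.

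The main question for these genes is how they answered WA in each line. In both lines, P4HA2, P4HA1, KDM3A and MXI1 rose and HK2 fell, and in MM1R the glucose carrier gene SLC2A3 rose as well. In MM1R, 5 of the 32 members tested rose and 1 fell, where 7.55% of all tested genes rose and 6.46% fell. In MM1S, 4 rose and 1 fell, where 6.25% of all tested genes rose and 4.23% fell. In this fit, which carries no block, the rises were thus among the HIF targets outside glycolysis and the carriers. The only glycolytic enzyme called without a block was HK2, which fell. With passage as replicate block, 12 and 8 of the 32 members were called in MM1R and MM1S. Of all tested genes, 29.1% and 24.1% were called with that block. GPI then fell and ALDOA, whose level cannot be read, rose in both lines. The summed plasma cell markers moved with WA in MM1R as well, from 17000 to 18690 CPM in untreated cultures and from 13210 to 16940 CPM with WA, without overlap. In MM1S they ran from 10920 to 12270 CPM untreated and from 9948 to 12350 CPM with WA. JCHAIN weighs most in this sum, at 5172 to 12681 CPM over all libraries, and none of the other plasma cell markers exceeded 1659 CPM. A shift of the sum therefore need not hold for each marker. The part of these markers in the results with WA was not tested.

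**Figure D2:**
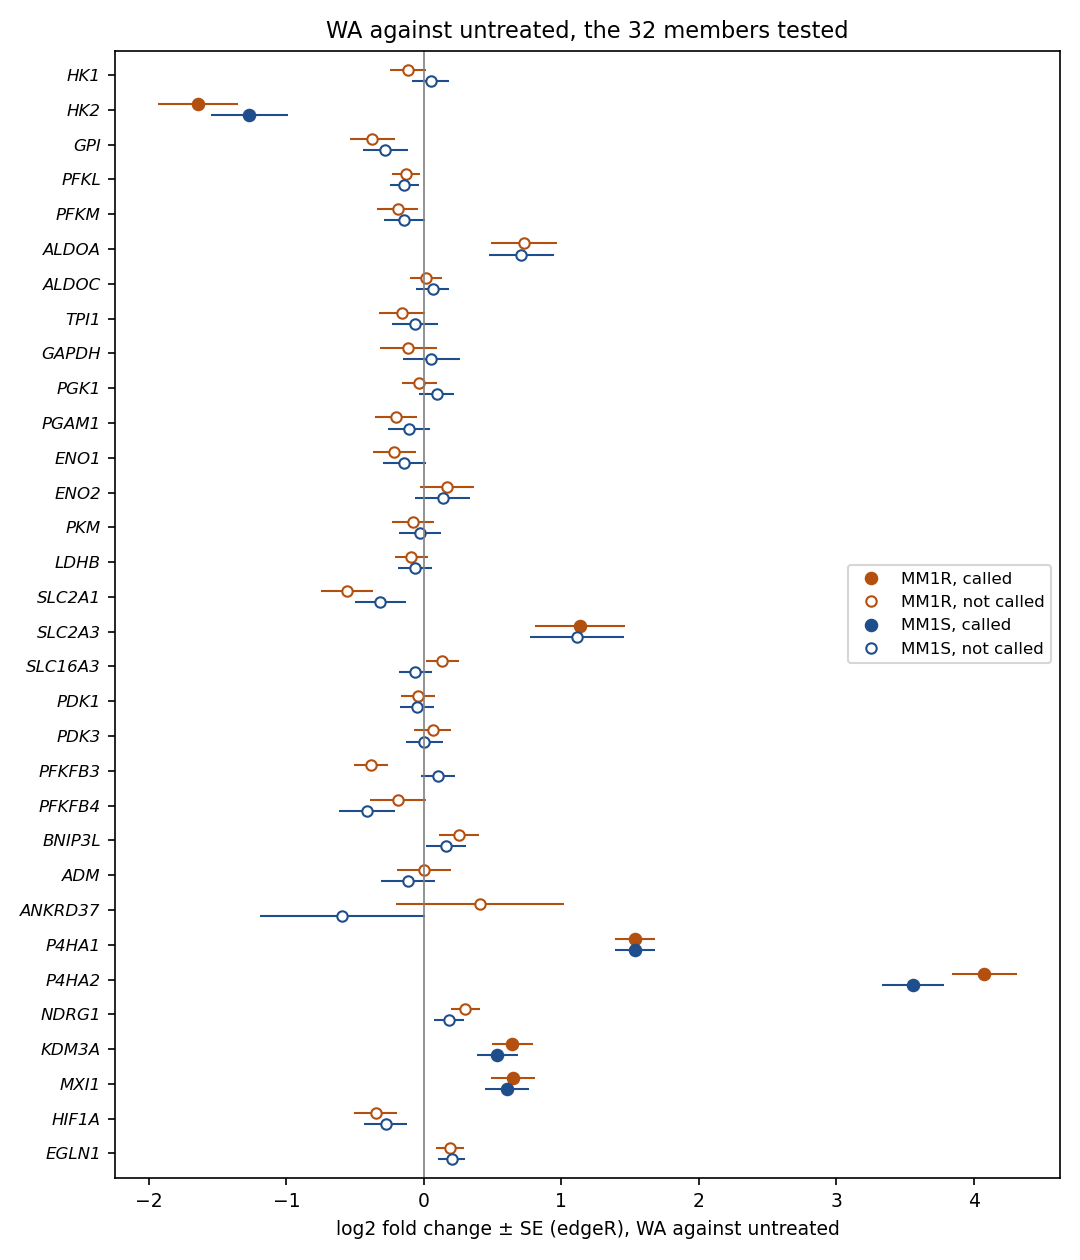
Log2 fold change with WA (± SE, edgeR without a block) of the 32 members tested, in MM1R (orange) and MM1S (blue). Filled points were called at an adjusted p of 0.05. P4HA2 stands apart on the right at 4.08 and 3.56, HK2 on the left at -1.64 and -1.27, and most glycolytic enzymes lie near 0.

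Of the 10 HIF targets outside glycolysis, 8 were tested and 4 were called higher in each line. Their median log2 fold change was 0.53 in MM1R and 0.36 in MM1S, while that of all tested genes was 0.01 in each line. P4HA2 and P4HA1 encode the catalytic subunits of prolyl 4-hydroxylase, which hydroxylates proline in collagen chains. KDM3A encodes a histone demethylase that acts on lysine 9 of histone H3, and MXI1 a repressor that competes with MYC for their shared partner MAX.

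P4HA2 lies on the minus strand of chromosome 5 from 131525840 to 131631008 (GRCh37). It had 6.79, 6.77 and 6.07 CPM in untreated MM1S of passages 16, 22 and 23, and 111.5, 54.9 and 65.0 CPM with WA. In MM1R of passages 4, 6 and 7 it had 3.90, 4.23 and 4.66 CPM untreated, and 71.9, 66.4 and 77.8 CPM with WA. The lowest WA culture lay far above the highest untreated culture in both lines. On the log2 scale the change was 4.08 (SE 0.24, adjusted p = 5.4e-07) in MM1R, a 16.9-fold rise, and 3.56 (SE 0.23, adjusted p = 1.5e-06) in MM1S, an 11.8-fold rise. By p-value P4HA2 ranked 1 of the 14085 genes in MM1R and 3 in MM1S, and by size of the increase 32 and 34. Within pairs of equal passage the log2 change lay between 2.93 and 4.04. The counts were not stated to use strand. The antisense entry P4HA2-AS1 had 0 to 4 reads, and PDLIM4, which lies within these coordinates, had 0.

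P4HA1, on the minus strand of chromosome 10 from 74766975 to 74856732, had 30.0, 43.4 and 39.7 CPM in untreated MM1S and 115.1, 96.8 and 116.0 CPM with WA. In MM1R it had 42.0, 43.4 and 35.0 CPM untreated and 104.2, 118.9 and 126.5 CPM with WA. The lines responded by nearly the same amount, 2.90-fold in each, with log2 fold changes of 1.54 (SE 0.15, adjusted p = 2.3e-05) in MM1R and 1.54 (SE 0.15, adjusted p = 2.6e-05) in MM1S. The difference between the lines was 0.00 with an interval from -0.44 to 0.44 on the log2 scale. P4HA3, the remaining catalytic subunit gene and not a member, had 0 to 2 reads. P4HB, which encodes the beta subunit of the enzyme, lay between 1483 and 2192 CPM and was not called in either line.

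The summed level of the 4 stromal cell markers moved with WA alongside the P4HA genes. It was 0.497 to 1.09 CPM in untreated MM1S and 2.29 to 6.55 CPM with WA, and 1.52 to 2.34 CPM in untreated MM1R and 5.29 to 17.9 CPM with WA. Nearly all of it was COL1A1, a collagen chain gene, with log2 fold changes of 2.46 (SE 0.47, adjusted p = 0.0039) in MM1R and 2.78 (SE 0.52, adjusted p = 0.0045) in MM1S. The defining markers COL1A2 and LUM were at 0 in all libraries and DCN was at most 0.0608 CPM. The part of these markers in the rise of the P4HA genes was not tested. In bulk RNA, a change in the share of cells that carry a transcript and a change in its amount per cell cannot be told apart.

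KDM3A, on the plus strand of chromosome 2 from 86667770 to 86719839, had 84.9, 70.3 and 68.1 CPM in untreated MM1S and 120.7, 96.0 and 106.9 CPM with WA. In MM1R it had 76.7, 70.9 and 56.6 CPM untreated and 92.1, 103.1 and 124.2 CPM with WA. Untreated and WA cultures did not overlap in either line. KDM3A rose by 0.65 on the log2 scale (SE 0.15, adjusted p = 0.011) in MM1R and 0.54 (SE 0.15, adjusted p = 0.034) in MM1S. The call in MM1S was lost without untreated MM1S of passage 22 or 23, MM1S with WA of passage 16 or 23, or untreated MM1R of passage 6, with adjusted p-values of 0.13, 0.13, 0.11, 0.082 and 0.053.

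MXI1, on the plus strand of chromosome 10 from 111967363 to 112047123, had 60.7, 63.5 and 56.4 CPM in untreated MM1S and 117.9, 79.4 and 77.3 CPM with WA. In MM1R it had 67.4, 61.8 and 57.1 CPM untreated and 87.4, 114.1 and 90.3 CPM with WA. Here too the groups did not overlap. MXI1 rose by 0.65 on the log2 scale (SE 0.16, adjusted p = 0.016) in MM1R and 0.60 (SE 0.16, adjusted p = 0.027) in MM1S. In MM1R the call was lost without untreated passage 6 or 7 or WA passage 6 (adjusted p 0.060, 0.062 and 0.063). In MM1S it was lost without untreated passage 16, 22 or 23 (adjusted p 0.061, 0.070 and 0.11), and without WA passage 16 the log2 fold change was 0.38 (adjusted p 0.098). A fit of the 6 MM1S libraries alone did not call MXI1 either.

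The other HIF targets outside glycolysis were not called with WA. NDRG1, a stress-induced gene that hypoxia raises, had log2 fold changes of 0.30 (SE 0.11, adjusted p = 0.075) in MM1R and 0.18 (SE 0.11, adjusted p = 0.32) in MM1S. With passage as replicate block, NDRG1 passed in MM1R (log2 fold change 0.30, adjusted p = 0.039). BNIP3L, a mitophagy receptor gene, had log2 fold changes of 0.25 and 0.16. ADM, which encodes the vessel-dilating peptide adrenomedullin, was well covered (2508 to 5325 reads) and had log2 fold changes of 0.00 (interval -0.42 to 0.43) and -0.11 (interval -0.54 to 0.31).

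ANKRD37, an ankyrin repeat gene, passed the filter at only 1 to 13 reads per library. Its CPM were 0.363, 0.568 and 0.547 in untreated MM1S and 0.379, 0.267 and 0.328 with WA. In MM1R they were 0.625, 0.329 and 0.0583 untreated and 0.320, 0.281 and 0.791 with WA. The groups overlapped, and a difference was not detectable at this depth. CA9 and BNIP3, 2 further HIF targets of this kind, had at most 0 and 11 reads.

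**Figure D3:**
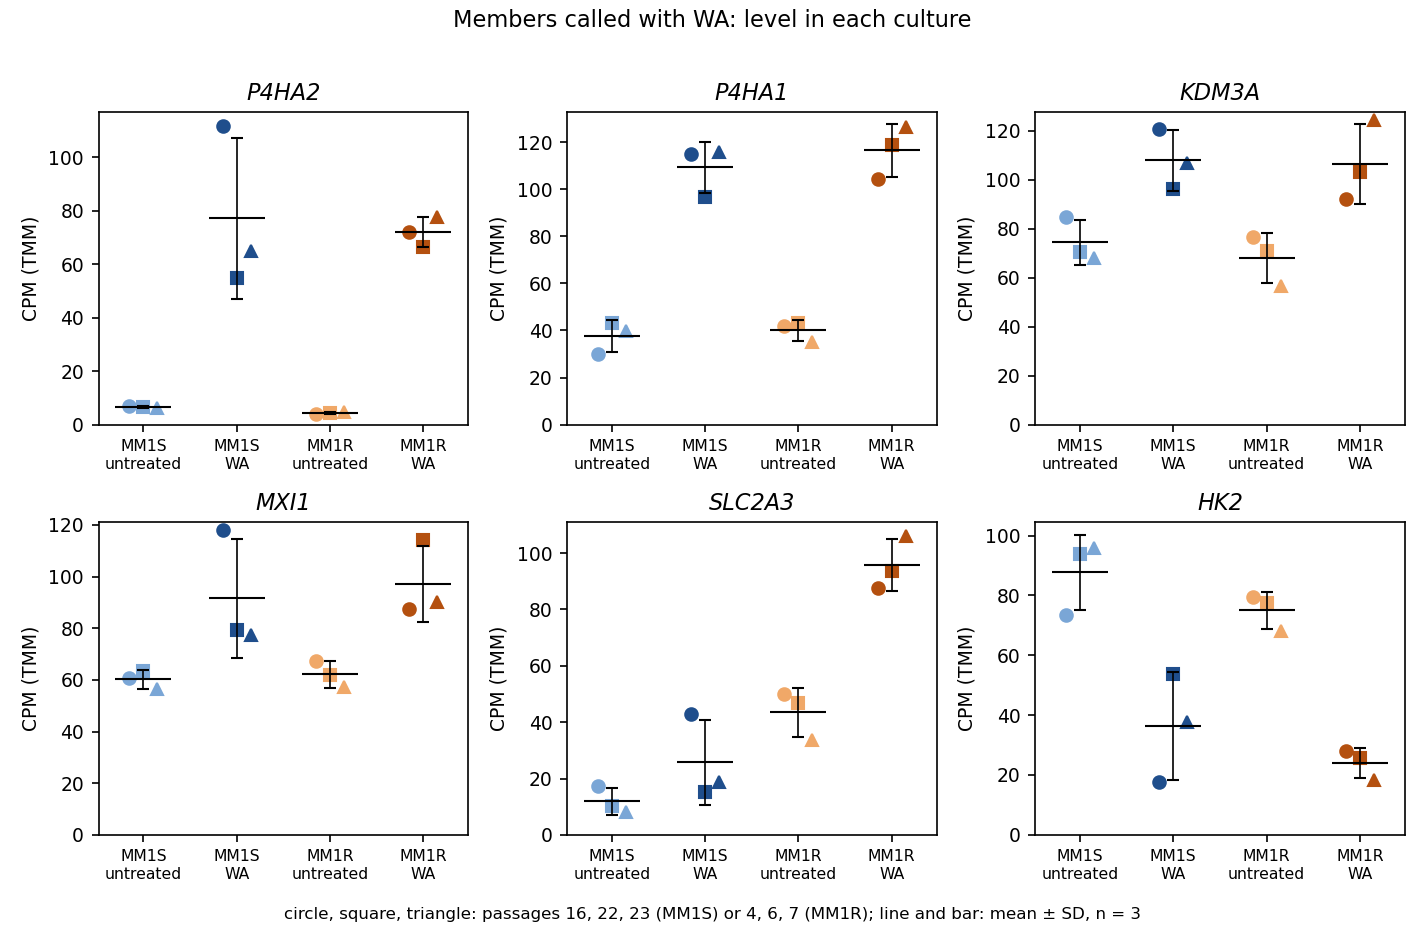
CPM in each of the 12 cultures of the 6 members called with WA in at least 1 line without a block, on linear axes from 0. Symbols mark the passage, and the line and bar give the mean ± SD of 3 cultures. WA and untreated cultures of a line do not overlap in any panel except SLC2A3 in MM1S, where the lowest WA culture (15.4 CPM) lies under the highest untreated one (17.2 CPM).

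Of the 17 glycolytic enzymes, 15 were tested, and without a block 0 rose and 1 fell in each line. Their median log2 fold change was -0.11 in MM1R, with 12 of the 15 below 0, and -0.06 in MM1S, with 9 below 0. HK2 encodes the inducible hexokinase that docks on mitochondria and lies on the plus strand of chromosome 2 from 75061254 to 75120486. It had 73.4, 94.0 and 96.0 CPM in untreated MM1S of passages 16, 22 and 23 and 17.8, 53.6 and 37.8 CPM with WA. In MM1R it had 79.5, 77.4 and 68.1 CPM untreated and 28.1, 25.6 and 18.3 CPM with WA. All WA cultures lay under all untreated cultures of their line, and the WA cultures of MM1S were spread widely, with passage 16 lowest. HK2 fell 3.12-fold in MM1R (log2 fold change -1.64, SE 0.29, adjusted p = 0.0023) and 2.41-fold in MM1S (log2 fold change -1.27, SE 0.28, adjusted p = 0.012). In a fit of the 6 MM1S libraries alone the adjusted p of HK2 was 0.054.

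HK1, the hexokinase that most tissues carry, had log2 fold changes of -0.11 and 0.05 with WA and was not called. The 5 members with the highest level per length also did not pass. GAPDH had 3570, 3752 and 4071 CPM in untreated MM1S and 3727, 3906 and 4211 CPM with WA. In MM1R it had 3236, 4468 and 6025 CPM untreated and 3091, 4448 and 5162 CPM with WA. The cultures overlapped in both lines, with intervals of the log2 fold change from -0.56 to 0.33 in MM1R and from -0.39 to 0.50 in MM1S.

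TPI1 had 919, 1087 and 1095 CPM in untreated MM1S and 879, 1024 and 1071 CPM with WA, and in MM1R 737, 927 and 1168 CPM untreated and 690, 888 and 959 CPM with WA. ENO1 had 1029, 1008 and 1100 CPM in untreated MM1S and 903, 931 and 1012 CPM with WA, and in MM1R 1032, 1275 and 1651 CPM untreated and 944, 1194 and 1274 CPM with WA. Both lay under the untreated culture of the same passage in 6 of 6 pairs, with the lowest log2 changes at -0.28 and -0.37. Neither was called, with adjusted p-values of 0.60 and 0.42 in MM1R.

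LDHB had 776, 661 and 680 CPM in untreated MM1S and 705, 664 and 658 CPM with WA, and in MM1R 749, 857 and 976 CPM untreated and 721, 832 and 870 CPM with WA. PGK1 had 829, 854 and 916 CPM in untreated MM1S and 857, 962 and 958 CPM with WA, and in MM1R 699, 811 and 968 CPM untreated and 720, 861 and 841 CPM with WA. Untreated and WA cultures overlapped for both genes in both lines. The intervals of their log2 fold changes lay within -0.35 and 0.37.

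GPI, which turns glucose 6-phosphate into fructose 6-phosphate, lay under its untreated culture in 6 of 6 pairs. Its log2 fold change was -0.38 (SE 0.16, adjusted p = 0.15) in MM1R and -0.28 (SE 0.16, adjusted p = 0.32) in MM1S. With passage as replicate block, GPI passed in both lines (log2 fold change -0.37, adjusted p = 0.0025 in MM1R, and -0.28, adjusted p = 0.014 in MM1S). The additional entry of GPI had 504 to 964 reads beside 6688 to 12143 for GPI, and both summed gave log2 fold changes of -0.37 and -0.28. ALDOA, whose level cannot be read, had log2 fold changes of 0.73 (adjusted p = 0.060) and 0.71 (adjusted p = 0.073), and with the block it passed in both lines (adjusted p = 0.032 and 0.038). PFKL, PFKM, ALDOC, PGAM1, ENO2 and PKM had log2 fold changes between -0.20 and 0.17 in both lines, and none was called.

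Of the 4 carriers, 3 were tested. SLC2A3 encodes GLUT3, a glucose carrier of high affinity, and lies on the minus strand of chromosome 12 from 8071826 to 8171603. It had 50.03, 46.8 and 33.6 CPM in untreated MM1R and 87.6, 93.8 and 106.0 CPM with WA. In MM1S it had 17.2, 10.4 and 8.05 CPM untreated and 43.1, 15.4 and 18.9 CPM with WA. The groups were apart in MM1R and overlapped in MM1S, where passage 16 was highest in both. SLC2A3 rose by 1.14 on the log2 scale in MM1R (SE 0.33, adjusted p = 0.032), and its change in MM1S was 1.12 (SE 0.34, adjusted p = 0.052). With passage as replicate block, SLC2A3 passed in MM1S (log2 fold change 1.06, adjusted p = 0.0012), and the log2 change was above 0 in 6 of 6 pairs (0.54 to 1.64). The call in MM1R was lost without untreated passage 6 or 7, or WA passage 4, 6 or 7, with adjusted p-values of 0.081, 0.12, 0.062, 0.065 and 0.087.

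SLC2A1 encodes GLUT1, the widespread basal glucose carrier. Its log2 fold change was -0.56 (SE 0.19, adjusted p = 0.062) in MM1R and -0.32 (SE 0.19, adjusted p = 0.32) in MM1S, with all 6 pairs below 0. The fit with the replicate block called it in MM1R (log2 fold change -0.55, adjusted p = 0.011). SLC16A3, which encodes the lactate exporter MCT4, had log2 fold changes of 0.14 and -0.06.

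Of the genes that steer pyruvate and flux, all 4 were tested and 0 were called with WA. PDK1 and PDK3 encode kinases that switch off pyruvate dehydrogenase, and their log2 fold changes lay between -0.05 and 0.07 in both lines. PFKFB3 and PFKFB4 encode enzymes that set fructose 2,6-bisphosphate, an activator of phosphofructokinase. The change of PFKFB3 was -0.38 on the log2 scale in MM1R (SE 0.12, adjusted p = 0.051), which passed with the replicate block (-0.38, adjusted p = 0.015), and 0.10 in MM1S (SE 0.12, adjusted p = 0.66). PFKFB4 had log2 fold changes of -0.19 and -0.42.

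HIF1A, which encodes the oxygen-labile subunit, had 45.2, 48.5 and 55.4 CPM in untreated MM1S and 36.9, 48.3 and 37.9 CPM with WA. In MM1R it had 39.4, 37.8 and 30.6 CPM untreated and 29.0, 32.7 and 22.8 CPM with WA. Each WA culture lay under the untreated culture of its passage, while the groups overlapped. Its fitted log2 change was -0.35 (SE 0.16, adjusted p = 0.16) in MM1R and -0.28 (SE 0.16, adjusted p = 0.30) in MM1S. In MM1R it passed with the replicate block (-0.36, adjusted p = 0.032). EGLN1, which encodes the main HIF prolyl hydroxylase, had log2 fold changes of 0.19 (adjusted p = 0.23) and 0.20 (adjusted p = 0.23), above 0 in 6 of 6 pairs. The HIF-1 alpha protein is controlled largely by its degradation, which RNA does not show. HIF1A lies on the plus strand of chromosome 14 from 62162231 to 62214977, and its antisense entries had 0 to 2 reads.

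With passage as replicate block, 12 of the 32 members were called in MM1R (7 higher, 5 lower) and 8 in MM1S (6 higher, 2 lower). Over all tested genes, 29.1% and 24.1% were called in that fit.

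Whether WA acted differently in the lines was tested as the difference between its effects in MM1R and MM1S. Of the 14085 genes 0% were called, and so were 0 of the 32 members. By edgeR 97 genes had an unadjusted p under 0.05 for this difference, and by DESeq2 it was 114 genes, of which 1 passed after adjustment and was not a member. Without a block, the only member with an unadjusted p under 0.05 in either tool was PFKFB3, with a difference of -0.49 (SE 0.17, adjusted p = 1). With passage as replicate block, 286 genes by edgeR and 127 by DESeq2 had an unadjusted p under 0.05, of which 0 and 6 passed after adjustment, and the members among the 286 and the 127 were PFKFB3 (-0.49, SE 0.15) and P4HA2 (0.58, SE 0.23), each with an adjusted p of 1 by edgeR. For P4HA2 the difference was 0.52 (interval -0.15 to 1.18), for HK2 -0.37 (interval -1.23 to 0.48) and for SLC2A3 0.02 (SE 0.48) on the log2 scale, and such intervals leave room for differences of some size.

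Between the lines, 5 of the 32 members were called untreated and 6 with WA, beside 11.9% and 12% of all tested genes. In untreated cells SLC2A3, HK1, ALDOC and PDK1 were higher and NDRG1 was lower in MM1R. With 4 higher and 1 lower of 32 members, this compares with 6.44% and 5.5% of all tested genes. With WA the same 4 genes were higher and NDRG1 and HIF1A were lower, beside 6.34% and 5.66% of all tested genes. The summed plasma cell markers moved with the line as well, from 10920 to 12270 CPM in untreated MM1S and from 17000 to 18690 CPM in untreated MM1R, and their part in these differences was not tested. JCHAIN has the most weight in this sum too. Under the stricter limit of 0.01 for the adjusted p with at least 1 log2 unit of difference, 2.97% of all genes were called between the untreated lines and SLC2A3 was the only member.

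**Figure D4:**
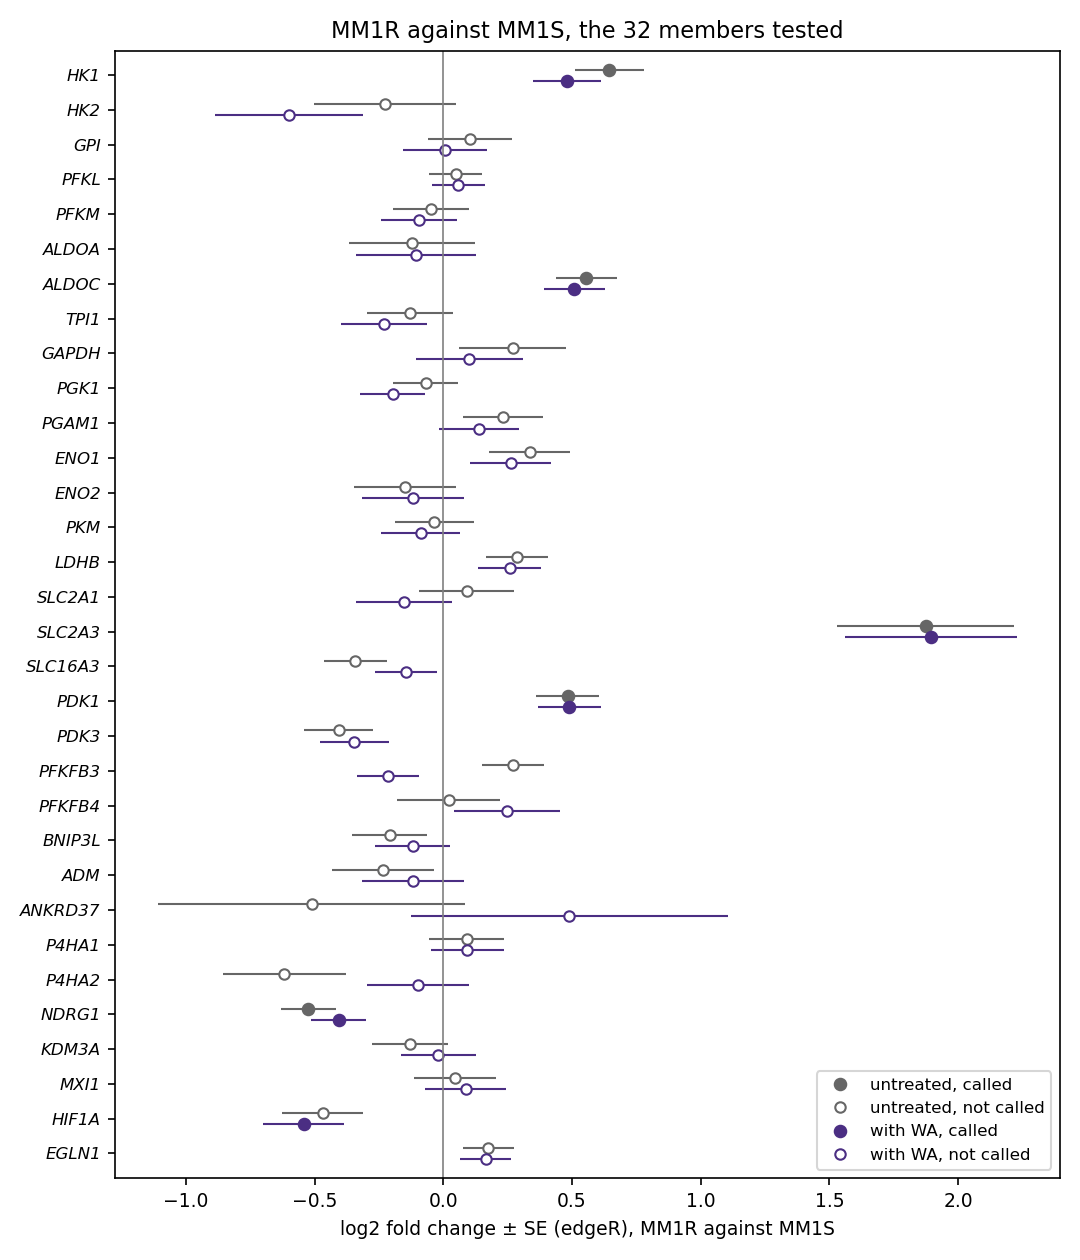
Log2 fold change of MM1R against MM1S (± SE, edgeR) of the 32 members tested, untreated (grey) and with WA (violet). Filled points were called at an adjusted p of 0.05. SLC2A3 stands alone near 1.9 in both conditions, and the other called genes lie between -0.54 and 0.64.

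SLC2A3 was 3.66-fold higher in untreated MM1R (log2 fold change 1.87, SE 0.34, adjusted p = 0.0030) and 3.72-fold higher with WA (log2 fold change 1.89, SE 0.33, adjusted p = 0.0023). From the values above, the lines did not overlap in either condition, and the call stood in all 18 alternatives of each comparison.

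HK1, on the plus strand of chromosome 10 from 71029740 to 71161640, had 22.8, 18.6 and 18.7 CPM in untreated MM1S and 35.2, 26.5 and 32.4 CPM in untreated MM1R. With WA it had 22.4, 21.2 and 18.7 CPM in MM1S and 29.7, 28.1 and 29.2 CPM in MM1R. The lines did not overlap. HK1 was higher in MM1R by 0.64 on the log2 scale (SE 0.13, adjusted p = 0.0064) untreated and 0.48 (SE 0.13, adjusted p = 0.031) with WA. The call with WA was lost without MM1S with WA of passage 22 or 23 or MM1R with WA of passage 4, 6 or 7 (adjusted p 0.086, 0.13, 0.084, 0.060 and 0.061).

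ALDOC, which encodes the brain-type aldolase and lies on the minus strand of chromosome 17 from 26900133 to 26903966, had 24.7, 30.3 and 25.4 CPM in untreated MM1S and 35.5, 42.4 and 40.3 CPM in untreated MM1R. With WA it had 27.3, 27.1 and 29.6 CPM in MM1S and 36.4, 43.2 and 40.0 CPM in MM1R. Again the lines were apart. This was a log2 difference of 0.56 (SE 0.12, adjusted p = 0.0084) untreated and 0.51 (SE 0.12, adjusted p = 0.014) with WA. It did not pass without untreated MM1R of passage 6 (adjusted p 0.062) in the former, nor without MM1R with WA of passage 6 or MM1S with WA of passage 22 (adjusted p 0.056 and 0.062) in the latter.

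PDK1, on the plus strand of chromosome 2 from 173420101 to 173473397, had 358, 282 and 356 CPM in untreated MM1S and 414, 506 and 472 CPM in untreated MM1R. With WA it had 300.5, 348 and 314 CPM in MM1S and 462, 475 and 413 CPM in MM1R. Every MM1R culture lay above every MM1S culture. On the log2 scale the difference was 0.48 (SE 0.12, adjusted p = 0.022) untreated and 0.49 (SE 0.12, adjusted p = 0.020) with WA. The untreated call was lost without MM1R of passage 6 or 7 or MM1S of passage 22 (adjusted p 0.13, 0.062 and 0.12). The call with WA was lost without MM1S of passage 23 or MM1R of passage 4 or 6 (adjusted p 0.079, 0.061 and 0.065). PDK3 had log2 fold changes of -0.41 (adjusted p = 0.065) and -0.35 (adjusted p = 0.11), so that the 2 kinase genes had opposite signs between the lines.

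NDRG1 had 123.8, 137.7 and 138.3 CPM in untreated MM1S and 88.3, 93.1 and 96.4 CPM in untreated MM1R. With WA it had 158.0, 154.7 and 141.2 CPM in MM1S and 121.9, 121.8 and 98.9 CPM in MM1R. The lines did not overlap within a condition. NDRG1 was 1.44-fold lower in untreated MM1R (log2 fold change -0.53, SE 0.11, adjusted p = 0.0061) and 1.32-fold lower with WA (log2 fold change -0.41, SE 0.11, adjusted p = 0.025). The call with WA was lost without MM1R with WA of passage 6 or 7, MM1S with WA of passage 22 or untreated MM1R of passage 6 (adjusted p 0.057, 0.14, 0.088 and 0.051). A fit of the 6 libraries with WA alone did not call NDRG1 either.

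HIF1A was lower in MM1R with WA (log2 fold change -0.54, SE 0.16, adjusted p = 0.039). In untreated cells its log2 fold change was -0.47 (SE 0.16, adjusted p = 0.068), and HIF1A was called there in 2 of 18 alternatives. The difference with WA did not pass without MM1S with WA of passage 22 or 23, MM1R with WA of passage 4 or 7, untreated MM1R of passage 6 or untreated MM1S of passage 22 (adjusted p 0.18, 0.066, 0.087, 0.18, 0.062 and 0.056). HIF1A was also not called in a fit of the 6 libraries with WA alone, nor where at least 10 reads were required in every library. The 13 glycolytic enzymes other than HK1 and ALDOC were not called between the lines in either condition. P4HA2, whose level was lower in untreated MM1R by a log2 fold change of -0.62 (SE 0.24), did not pass (adjusted p = 0.11), and with WA the value was -0.10 (adjusted p = 0.78).

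Cultures of different passage within a group differed in a way that most glycolytic enzymes shared. The median SD of log2 CPM over the 15 glycolytic enzymes was 0.12 in untreated MM1S, 0.13 in MM1S with WA, 0.21 in untreated MM1R and 0.23 in MM1R with WA. For the 8779 tested genes with a mean of at least 10 CPM it was 0.12, 0.17, 0.16 and 0.14. The median of the glycolytic enzymes lay above that of these genes in both groups of MM1R and below it in MM1S with WA.

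In untreated MM1R, passage 7 was highest in 12 and passage 4 lowest in 10 of the 15 enzymes. In MM1R with WA, passage 7 was highest in 10 and passage 4 lowest in 11. The median deviation from the group mean was -0.19 for passage 4 and 0.21 for passage 7 in untreated MM1R, and -0.16 and 0.12 with WA, on the log2 scale. That of all tested genes stayed within -0.01 and 0.02 in every library. Over the tested genes of at least 10 CPM it ran from -0.05 to 0.04, and it was lowest in the WA cultures of MM1S passage 16 (-0.05) and MM1R passage 4 (-0.04), where the glycolytic enzymes were also low. In MM1S the deviations were smaller, -0.09 and 0.08 for passages 16 and 23 untreated and -0.11 and 0.09 with WA.

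**Figure D5:**
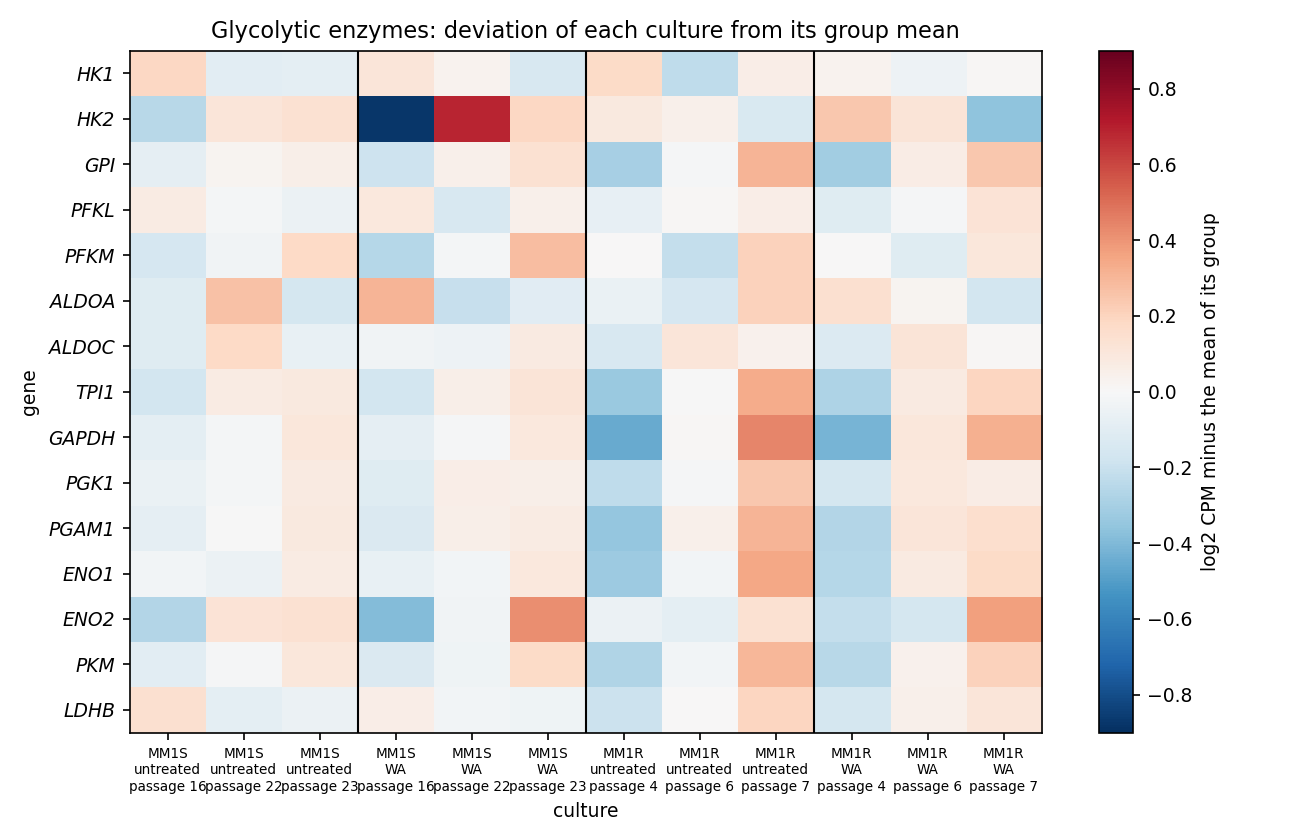
Deviation of each culture from its group mean in log2 CPM for the 15 tested glycolytic enzymes, in the 12 cultures by group. In both MM1R groups passage 4 is mostly below (blue) and passage 7 mostly above the mean (red), and HK2 in MM1S with WA shows the widest spread (SD 0.80).

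GAPDH carried the widest such range among the abundant members, with an SD of log2 CPM of 0.45 in untreated MM1R and 0.10 in untreated MM1S. The 17 glycolytic enzymes summed to 8663, 10847 and 13779 CPM in untreated MM1R of passages 4, 6 and 7 and to 8122, 10519 and 11709 CPM with WA. The WA culture was lower in 3 of 3 pairs of equal passage. In MM1S of passages 16, 22 and 23 the sum was 9465, 9896 and 10499 CPM untreated and 9130, 9769 and 10501 CPM with WA, lower in 2 of 3 pairs. The group means in MM1R were 11096 ± 2567 CPM (SD, n = 3) untreated and 10117 ± 1827 CPM with WA, and the sum was not tested. GAPDH alone made up 37.3% to 44.1% of the sum over all libraries. The sum also holds the entries of LDHA and ALDOA, which cannot be read as levels. Which property of the cultures moves with passage 7 was not tested.

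Of all 32 tested members, SLC2A3 had the widest spread between passages pooled over the groups (SD of log2 CPM 0.50), followed by HK2 (0.45), ANKRD37 (0.34) and GAPDH (0.30). In MM1S with WA, SLC2A3 and HK2 had an SD of 0.77 and 0.80. There passage 16 was highest for SLC2A3, P4HA2, KDM3A and MXI1 and lowest for HK2. Over all 32 members the median SD was 0.15, 0.15, 0.19 and 0.15 in untreated MM1S, MM1S with WA, untreated MM1R and MM1R with WA, compared with 0.15, 0.20, 0.18 and 0.17 for all tested genes.

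Other genes of the same pathways come from lists made by function, with earlier results of these data known. Their counts and calls are from the fit without a block. Of 35 further genes for glycolysis, glucose transport and pyruvate, 23 were tested. ENO3, which encodes muscle enolase, rose in MM1R with WA (log2 fold change 1.08, SE 0.28, adjusted p = 0.019), and ADPGK, an ADP-dependent glucokinase gene, fell (-0.31, SE 0.09, adjusted p = 0.043). These were 1 higher and 1 lower of 23, beside 7.55% and 6.46% of all tested genes. The call of ENO3 was lost without untreated MM1R of passage 6 or 7 or MM1R with WA of passage 4 or 7 (adjusted p 0.096, 0.073, 0.093 and 0.057), and that of ADPGK without any 1 of 11 libraries, all but MM1S with WA of passage 16 (adjusted p 0.052 to 0.15). In MM1S 1 gene rose and 0 fell, beside 6.25% and 4.23% of all tested genes. This was TIGAR, which encodes a fructose 2,6-bisphosphatase that p53 induces (log2 fold change 0.73, SE 0.14, adjusted p = 0.0061). Between untreated lines TIGAR was higher in MM1R (0.65, adjusted p = 0.010), and the pyruvate dehydrogenase phosphatase gene PDP1 was lower (-0.78, adjusted p = 0.015), where 6.44% and 5.5% of all tested genes were called. Without untreated MM1S of passage 22 the adjusted p of TIGAR was 0.050 and no longer passed, and PDP1 did not pass without untreated MM1S of passage 23 or untreated MM1R of passage 6 (adjusted p 0.066 and 0.055). With WA, PDP1 alone was called (-0.75, adjusted p = 0.018), beside 6.34% of all tested genes higher and 5.66% lower. That call was lost without MM1R with WA of passage 6 or 7 or MM1S with WA of passage 22 (adjusted p 0.080, 0.060 and 0.097).

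Of 38 further genes of the hypoxia response and HIF regulation, 30 were tested, and 5 rose and 4 fell with WA in MM1R, where 7.55% of all tested genes rose and 6.46% fell. In MM1S 4 rose and 2 fell, where the shares of all tested genes were 6.25% and 4.23%. The median log2 fold change of the list was -0.03 in MM1R and 0.04 in MM1S. DDIT4, which encodes the mTORC1 inhibitor REDD1, had 9.01, 14.3 and 8.55 CPM in untreated MM1S of passages 16, 22 and 23 and 110.3, 41.5 and 223.4 CPM with WA. In MM1R of passages 4, 6 and 7 it had 29.4, 33.9 and 38.2 CPM untreated and 228.3, 306.1 and 747.8 CPM with WA. The groups did not overlap, and the WA cultures of passage 23 and passage 7 stood far above the others. DDIT4 rose 12.6-fold in MM1R (log2 fold change 3.66, SE 0.54, adjusted p = 0.00069) and 11.8-fold in MM1S (3.56, SE 0.55, adjusted p = 0.0011). Leaving out the WA culture of passage 7 lowered the log2 value in MM1R to 3.01 (adjusted p = 0.0022), and leaving out that of passage 23 lowered it in MM1S to 2.83 (adjusted p = 0.0032). PLOD1, a collagen lysyl hydroxylase gene, rose by log2 fold changes of 1.20 (SE 0.11, adjusted p = 2.3e-05) and 1.30 (SE 0.11, adjusted p = 1.3e-05). VEGFA, the vascular growth factor gene, rose by 1.19 (adjusted p = 0.011) and 0.97 (adjusted p = 0.036), and the small MAF factor gene MAFF by 1.19 (adjusted p = 0.015) and 1.14 (adjusted p = 0.023). The call of VEGFA in MM1R was lost without untreated MM1R of passage 6 or MM1R with WA of passage 7 (adjusted p 0.051 in each). In MM1S it was lost without untreated MM1S of passage 16 or 23, MM1S with WA of passage 23 or untreated MM1R of passage 6 (adjusted p 0.10, 0.096, 0.16 and 0.061). MAFF did not pass in MM1R without untreated or WA passage 7 (adjusted p 0.061 and 0.066), nor in MM1S without untreated passage 16 or 23 or WA passage 23 (adjusted p 0.067, 0.069 and 0.10). IGFBP3, an insulin-like growth factor binding protein gene, fell by 0.65 (adjusted p = 0.014) and 0.78 (adjusted p = 0.0071) on the log2 scale, and its call in MM1R was lost without WA passage 6 or 7 (adjusted p 0.065 and 0.060). Genes of this list were thus called in both directions, 5 higher and 4 lower in MM1R and 4 higher and 2 lower in MM1S.

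Between the untreated lines, 2 of these 30 genes were higher in MM1R, IGFBP3 (log2 fold change 1.23, adjusted p = 0.00025) and PPFIA4 (0.97, adjusted p = 0.045), and 0 were lower, beside 6.44% and 5.5% of all tested genes. With WA, IGFBP3 (1.36, adjusted p = 0.00012) and DDIT4 (1.77, adjusted p = 0.033) were higher in MM1R, and AK4, which encodes a mitochondrial adenylate kinase, was lower (-0.83, adjusted p = 0.044), beside 6.34% and 5.66% of all tested genes. The call of DDIT4 was lost without MM1R with WA of passage 7 (log2 fold change 1.12, adjusted p 0.16) or MM1S with WA of passage 16 or 22 (1.69 and 1.35, adjusted p 0.051 and 0.096), whereas leaving out the WA culture of passage 23 raised its log2 fold change to 2.49. The call of PPFIA4 was lost without any 1 of 6 libraries, namely the 3 of untreated MM1R, untreated MM1S of passage 22 or 23 and MM1R with WA of passage 4 (adjusted p 0.056 to 0.16). That of AK4 was lost without any 1 of 8, namely the 3 of MM1R with WA, MM1S of passage 22 or 23 with WA or untreated, and untreated MM1R of passage 6 (adjusted p 0.054 to 0.19).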

How the data were processed

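RNA from 12 cultures of the MM1S and MM1R lines, 3 per group, was sequenced. Line, treatment and passage were read from the labels, and the passage was used as the number of a replicate. The authors deposited raw counts per gene, which STAR 2.7.3a produced from reads mapped to hg19, after FastQC 0.11.5 and without normalization. A further table that the authors deposited, scaled with DESeq2, was not used. The gene models and strand setting of the counting are not given in the sources used here. Gene coordinates and exon lengths are from GENCODE on GRCh37 and promoter windows from RefSeq (GRCh38.p14).

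The members and the gene lists were chosen with earlier results of these data known. The main tests used edgeR 4.0.16 under R 4.3.3 (filterByExpr with a minimum count of 10, TMM, quasi-likelihood test in 1 fit of 12 libraries without block, Benjamini-Hochberg adjustment). Intervals are 95% intervals of the log2 fold change from this fit. DESeq2 1.42.0, other filters, size factors, limits, subsets of libraries and a replicate block were alternatives. Pair changes are log2(CPM + 0.5) differences. The edgeR and DESeq2 tests without a block were checked on simulated data, and the fits with a block were not. Depth was 17625110 to 19368343 counts per library. No library was a copy of another, with a chi-square per degree of freedom of 8.36 to 47.1 between the counts of replicates, far above sampling noise.

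Whether passage number pairs untreated and WA cultures was checked by correlating their deviations from the group means over genes of at least 10 CPM. Same-passage correlations were 0.48, 0.34 and 0.33 in MM1R (passages 4, 6, 7) and 0.81, 0.20 and 0.56 in MM1S (16, 22, 23), though for untreated passage 22 the WA culture of passage 23 was closer (0.43). Untreated passage 23 was nearly as close to the WA culture of passage 22 (0.53) as to its own (0.56). Passage numbers were taken to pair the cultures by their labels. The correlations set this pairing apart in MM1R and for passage 16 of MM1S, but not between passages 22 and 23. For those passages, pair changes and values with the block rest on the labels. The tests above carry no block, and values with the block stand beside each member whose call they change. For genes of the other lists, calls made only with the block were not looked for. The lines share no passage, so a comparison of lines has no block.

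Values in every library are given for members called in any comparison, the 5 highest per length, HIF1A and the 4 with the widest spread within groups. From the other lists, up to 4 called genes per comparison were named by smallest adjusted p.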

Additional observations from a re-analysis of the deposited data

Results flagged for a closer look

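In 2 members all 3 MM1R pairs of equal passage moved down with WA and all 3 MM1S pairs moved up. For PFKFB3 the log2 changes were -0.32, -0.38 and -0.42 in MM1R (passages 4, 6, 7) and 0.19, 0.11 and 0.01 in MM1S (passages 16, 22, 23), and the difference between the lines was -0.487 (SE 0.17, adjusted p = 1 by edgeR over all tested genes). For GAPDH they were -0.07, -0.01 and -0.22 in MM1R and 0.06, 0.06 and 0.05 in MM1S, with a difference of -0.168 (SE 0.29, adjusted p = 1 by edgeR). Neither difference passed the test. Groups of 3 are too small to check a culture as an outlier.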

How the results depend on the processing

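With passage as replicate block, edgeR called 12 members with WA in MM1R and 8 in MM1S (6 and 5 without the block). DESeq2 with the block called 10 and 7, and these paired fits ended no call of a member. Beside these, edgeR called 29.1% and 24.1% of all tested genes (14% and 10.5% without the block). DESeq2 called 12.9% and 11% of the 26497 genes with a read. For the difference between lines in the effect of WA, genes with an unadjusted p under 0.05 went from 97 to 286 by edgeR with the block, genes called by DESeq2 from 1 to 6 and members with an unadjusted p under 0.05 from 1 to 2, while 0 members were called. In a fit of only the 6 libraries compared, 3 members were called with WA in MM1S, beside 8.46% of all tested genes. HK2 and MXI1 did not pass there. Between the lines with WA, such a fit called 4 members, all higher in MM1R, beside 7.96% of all tested genes. NDRG1 and HIF1A did not pass in it. At an adjusted p of 0.01, 3 members were called with WA in MM1R and 2 in MM1S, beside 5.76% and 3.95% of all tested genes. Where at least 1 log2 unit of difference was required as well, 1 was called between the lines untreated and 1 with WA, in each case SLC2A3. That limit called 2.97% and 3.04% of all tested genes. With each library left out in turn, the counts ran from 4 to 9 for WA in MM1R, 3 to 6 for WA in MM1S, 3 to 7 between untreated lines, 2 to 8 between lines with WA and stayed at 0 for the difference in effect. The share of all tested genes called moved as well. In the same order it ran from 6.57% to 16.7%, 5.03% to 11.2%, 5.68% to 14.7% and 5.61% to 20.5%. The count for WA in MM1S was 3 without untreated MM1S of passage 22 or 23 or MM1S with WA of passage 16, and that between untreated lines was 3 without untreated MM1R of passage 6. Of all tested genes, 5.04%, 5.03%, 6.47% and 5.95% were called in these fits. Between lines with WA it was 2 without MM1R with WA of passage 6 or MM1S with WA of passage 22, and 3 without MM1R with WA of passage 4 or 7 or MM1S with WA of passage 23. There 7.24%, 5.61%, 7.5%, 7.63% and 6.36% of all tested genes were called. The cause was not tested. DESeq2's size factors, DESeq2, no filter and at least 10 reads in every library kept every count within 1.5 times, and no log2 fold change of a called member changed sign under any alternative run. P4HA2 stayed between 4.01 and 4.15 in MM1R and between 3.20 and 3.75 in MM1S, P4HA1 between 1.39 and 1.65, and HK2 between -1.77 and -1.46 in MM1R and between -1.66 and -0.94 in MM1S. CPM without division by length leave the ratio of a gene between groups as it is, so this alternative gave no value. Summing both GPI entries was chosen after seeing the data. Depth limits ANKRD37.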
